A study of Mus musculus with 20 samples.

Results

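The MHC class II genes were followed in crypt epithelium of the mouse small intestine. They were taken as the rows of the deposited count tables named Cd74, H2-Aa, H2-Ab1, H2-Eb1, H2-DMa, H2-DMb1, H2-DMb2 or Ciita. Rows were picked by gene name, without a cut on measured values. The names were chosen with earlier results of these data known. Of these 8 genes, 7 had a row in both tables, out of 11746 entries for GFP-high cells and 11779 for GFP-low cells. No row of either table was named H2-DMb2, which is therefore not analysed here. RNA was sequenced from epithelial cells of 8-week C57BL/6J mice carrying Lgr5-GFP, a reporter of stem cells at the crypt base. The WT groups were Itgb7+/+ and the KO groups Itgb7-/-, and all 4 groups carried Lgr5-GFP. Itgb7 encodes integrin beta 7, which lymphocytes use to home to and stay in the gut. The deletion is labelled as a genotype of the mouse and not as one made in epithelium. Living cells were sorted for EpCAM and against CD45, CD31 and TER119. The labels call the cells of high GFP stem cells and those of low GFP transit-amplifying cells. The 20 libraries formed 4 groups of 5, from WT mice 1, 3, 6, 7 and 8 and KO mice 2, 3, 4, 5 and 6, and each number appears in both populations. The labels number the libraries without saying what a number stands for. It was read here as the mouse, because same-numbered GFP-high and GFP-low libraries deviated together, and every within-mouse, blocked and summed value rests on that reading.

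MHC class II molecules are pairs of an alpha and a beta chain that display peptides from endosomes to CD4+ T cells. The invariant chain, encoded by Cd74, holds the new pair and guides it to endosomes, and the DM pair, encoded by H2-DMa and H2-DMb1, then helps exchange the remnant of that chain for other peptides. Transcription of these genes depends on CIITA, a coactivator encoded by Ciita that is recruited by factors bound to the X and Y boxes of their promoters. Dendritic cells, macrophages and B cells express the genes constitutively. Intestinal epithelium is also known to express them, and interferon gamma raises them there.

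Total counts ran from 20900404 to 27838392 per library. All 12 epithelial markers listed had rows in both tables. GFP-low cells had less Lgr5 than GFP-high cells, at 12.9 ± 6.71 against 102 ± 20.0 CPM in WT and 7.00 ± 2.38 against 105 ± 11.2 in KO (SD, n = 5). Itgb7 had a row in neither table, so the genotypes rest on the labels. Mouse 6 of the WT and mouse 4 of the KO stood above the other mice of their genotype. This held in every one of the 7 genes and in both populations. Some of the results that rest on them are given with and without them.

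On GRCm38 the genes H2-DMa, H2-DMb2, H2-DMb1, H2-Ab1, H2-Aa and H2-Eb1 lie in that order on chromosome 17. H2-DMa spans chr17:34119541-34139101 and H2-DMb1 chr17:34153072-34160230, both on the plus strand. H2-Ab1 spans chr17:34257689-34269419 on the plus strand, H2-Aa chr17:34282744-34287823 on the minus strand and H2-Eb1 chr17:34305867-34316674 on the plus strand. Ciita spans chr16:10480059-10528418 on the plus strand. H2-DMa overlaps Brd2 in this annotation, and Ciita overlaps Dexi. H2-Eb1 overlaps the gene model Gm20513. These overlaps are of whole gene spans and not of exons. Whether counting used strand is not given in the sources used here. Without strand, reads from bases that partners share could not be told apart. The counts of H2-DMa, Ciita and H2-Eb1 were whole numbers in every library.

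Promoter windows of 250 bases before and 50 after the start site came from RefSeq (GRCm38.p6). They are shown because the X and Y boxes through which CIITA acts lie there. In each window CCAAT, the Y box core, and an X box core (AG, 2 bases of any kind, AC, 2 bases of any kind, then ATG) were searched on both strands, and the matches are in capitals (ATTGG is CCAAT on the other strand). Of 32851 windows in the table, 37.4% held CCAAT, 3.09% held the X box core and 1.42% held both. The windows are chr17:34305617-34305916 for H2-Eb1, chr17:34152941-34153240 for H2-DMb1, chr17:34144999-34145298 for H2-DMb2 and chr17:34287774-34288073 for H2-Aa, each read along the strand of its gene.
H2-Eb1: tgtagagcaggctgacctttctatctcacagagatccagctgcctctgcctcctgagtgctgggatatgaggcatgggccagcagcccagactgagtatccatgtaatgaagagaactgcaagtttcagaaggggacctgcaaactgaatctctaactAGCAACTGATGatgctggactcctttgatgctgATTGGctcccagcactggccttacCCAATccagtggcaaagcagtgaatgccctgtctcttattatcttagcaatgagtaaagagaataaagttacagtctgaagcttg
H2-DMb1: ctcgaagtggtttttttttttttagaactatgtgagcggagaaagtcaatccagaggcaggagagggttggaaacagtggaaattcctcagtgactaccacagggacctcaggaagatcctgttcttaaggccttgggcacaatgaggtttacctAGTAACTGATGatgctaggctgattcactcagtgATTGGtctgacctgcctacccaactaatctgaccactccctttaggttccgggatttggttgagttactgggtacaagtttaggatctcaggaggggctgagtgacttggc
H2-DMb2: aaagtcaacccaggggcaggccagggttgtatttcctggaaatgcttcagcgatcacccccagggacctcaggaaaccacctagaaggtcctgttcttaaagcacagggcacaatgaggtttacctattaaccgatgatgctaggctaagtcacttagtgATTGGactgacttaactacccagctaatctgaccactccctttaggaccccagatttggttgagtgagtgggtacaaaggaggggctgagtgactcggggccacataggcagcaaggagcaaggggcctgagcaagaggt
H2-Aa: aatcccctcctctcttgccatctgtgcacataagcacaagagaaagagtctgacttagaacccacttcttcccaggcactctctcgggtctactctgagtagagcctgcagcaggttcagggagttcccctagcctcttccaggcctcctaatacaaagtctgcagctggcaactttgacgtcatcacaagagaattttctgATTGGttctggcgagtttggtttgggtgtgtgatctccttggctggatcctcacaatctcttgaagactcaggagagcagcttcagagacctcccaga
Among the genes with a window here, H2-Eb1 and H2-DMb1 each held both motifs. In H2-Eb1 the X box core AGCAACTGATG began 92 bases before the start site, and CCAAT began 59 and 35 bases before it, on the minus and plus strands. The X box core of H2-DMb1, AGTAACTGATG, began 95 bases before the start site, with CCAAT on the minus strand 61 bases before it. H2-Aa and H2-DMb2 each held 1 CCAAT, beginning 48 and 90 bases before the start site, and no X box core. H2-DMa had 2 windows, of which 1 held a CCAAT. No window is given here for H2-Ab1, Cd74 or Ciita, so whether they hold the motifs is not shown. A match describes letters in a window and is not a measured binding site.

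In all 4 groups H2-Ab1 and Cd74 were the most abundant of the 7 transcripts and Ciita the least. Levels are in CPM, counts scaled to a common library size over all 20 libraries, and for comparisons between genes they were divided by the length of the principal transcript in kilobases. In WT GFP-high cells the mean CPM per kilobase was 209 ± 138 for H2-Ab1, 134 ± 83.0 for Cd74, 47.7 ± 21.7 for H2-DMa and 36.0 ± 32.5 for H2-Eb1 (SD, n = 5). H2-Aa followed at 22.5 ± 18.6, H2-DMb1 at 18.9 ± 11.1 and Ciita at 0.901 ± 0.532. KO GFP-high cells had 353 ± 123 for H2-Ab1, 304 ± 129 for Cd74 and 1.24 ± 0.264 for Ciita. In WT GFP-low cells H2-Ab1 stood at 144 ± 60.0 and Cd74 at 54.0 ± 34.2, and in KO GFP-low cells at 296 ± 151 and 126 ± 68.5. The ranges of H2-Ab1 and Cd74 per kilobase overlapped across the GFP-high mice, as did those of H2-Aa and H2-DMb1.

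The order of the group means was the same for Cd74, H2-Aa, H2-Eb1, H2-DMa and Ciita, with KO GFP-high highest, then WT GFP-high, KO GFP-low and WT GFP-low. For H2-Ab1 and H2-DMb1, KO GFP-low stood above WT GFP-high. In each gene, every pair of neighbouring groups in this order overlapped. The values of each library follow in CPM, always with WT mice 1, 3, 6, 7 and 8 first and KO mice 2, 3, 4, 5 and 6 second.

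H2-Ab1 encodes the beta chain of I-A. In GFP-high cells it was at 159, 188, 532, 111 and 275 CPM in WT and at 244, 424, 658, 388 and 425 CPM in KO mice. In GFP-low cells it was at 167, 170, 273, 69.2 and 191 CPM in WT and at 281, 290, 684, 290 and 248 CPM in KO mice. Among GFP-low cells WT mouse 6 alone reached into the KO range, and in GFP-high cells WT mouse 8 did so too. H2-Aa encodes the alpha chain of the same pair. Its GFP-high values were 12.9, 20.0, 61.1, 7.78 and 25.0 CPM in WT and 54.7, 49.2, 156, 35.5 and 44.6 CPM in KO mice. Its GFP-low values were 6.77, 14.0, 17.6, 1.05 and 3.44 CPM in WT and 14.3, 10.4, 46.8, 9.66 and 15.4 CPM in KO mice. In GFP-high cells WT mouse 6 exceeded 4 of the 5 KO mice, whereas the other 4 WT mice lay below all of them. WT mice 3 and 6 overlapped the KO range in GFP-low cells. The lowest H2-Aa value, in WT mouse 7, rested on 21 counts.

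H2-Eb1, the beta chain of I-E, stood at 27.8, 46.9, 155, 22.1 and 48.7 CPM in WT GFP-high cells and at 106, 115, 288, 96.1 and 95.2 CPM in KO GFP-high cells. The GFP-low values were 12.1, 26.3, 42.3, 5.57 and 8.21 CPM in WT and 34.5, 28.0, 96.3, 26.9 and 27.8 CPM in KO mice. In both populations the 4 WT mice other than mouse 6 lay below every KO mouse, and mouse 6 lay above 4 of the 5. H2-Ea and H2-Ea-ps, names for the alpha chain gene of I-E, had no row in either table. No I-E pair is therefore read from the level of H2-Eb1. Cd74, at chr18:60803848-60812652 on the plus strand, was at 141, 171, 387, 78.4 and 165 CPM in WT GFP-high cells and at 354, 400, 745, 366 and 282 CPM in KO GFP-high cells. It was at 60.9, 95.0, 150, 26.1 and 48.6 CPM in WT GFP-low cells and at 137, 127, 348, 119 and 155 CPM in KO GFP-low cells. Again WT mouse 6 was the only WT mouse inside the KO range, in each population.

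H2-DMa, the alpha chain of DM, was at 59.4, 68.2, 142, 51.9 and 74.3 CPM in WT GFP-high cells and at 127, 116, 215, 109 and 94.1 CPM in KO GFP-high cells. In GFP-low cells it was at 34.6, 59.6, 79.6, 27.4 and 34.2 CPM in WT and at 72.9, 58.9, 117, 67.8 and 61.4 CPM in KO mice. Its beta chain H2-DMb1 was at 14.9, 25.1, 52.8, 15.0 and 25.2 CPM in WT and 39.9, 46.3, 87.0, 42.6 and 38.3 CPM in KO GFP-high cells. In GFP-low cells H2-DMb1 was at 15.0, 22.7, 34.4, 6.48 and 10.7 CPM in WT and 19.6, 25.1, 60.4, 25.0 and 22.9 CPM in KO mice. WT mouse 6 was the only WT mouse inside the KO range of either gene in GFP-high cells, and mice 3 and 6 were inside it in GFP-low cells. H2-DMb1 shared 27.2% of its 1355 distinct stretches of 50 transcript bases with H2-DMb2, and its counts were not whole numbers in 11 of 20 libraries. Its values are therefore uncertain where reads could belong to either copy.

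Ciita was low throughout, at 5.42, 3.55, 10.9, 2.99 and 4.20 CPM in WT and 5.62, 7.34, 9.79, 6.47 and 7.98 CPM in KO GFP-high cells. In GFP-low cells it was at 1.08, 2.81, 4.70, 1.10 and 0.845 CPM in WT and 4.66, 1.28, 7.23, 0.842 and 2.36 CPM in KO mice. These values rested on 14 to 272 counts per library. The groups overlapped widely in GFP-low cells, and in GFP-high cells WT mouse 6 had the highest value of all 10 mice.

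**Figure D1:**
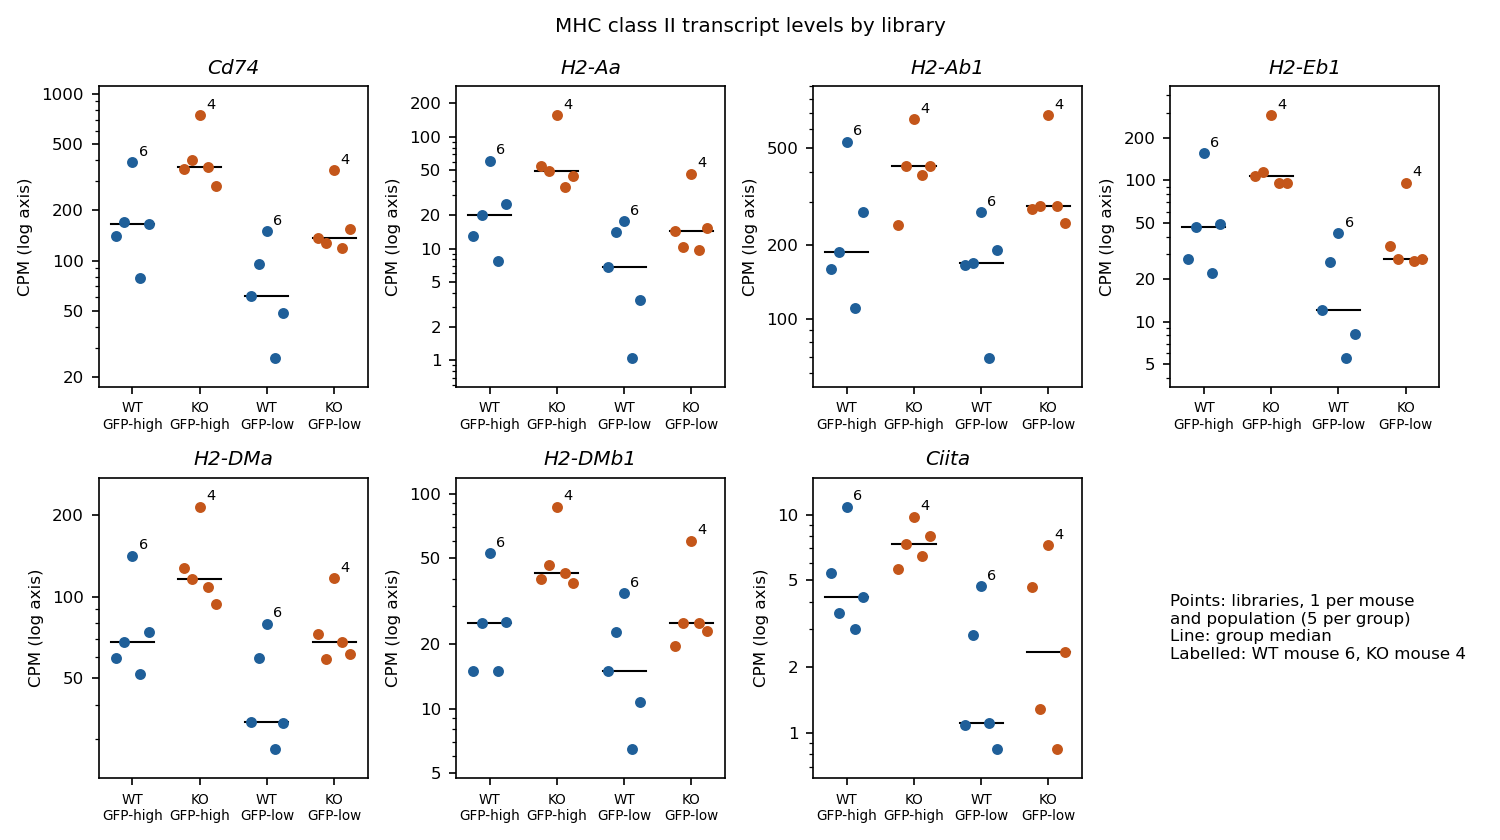
Level of each MHC class II transcript in CPM (log axis) by genotype and population, with 1 point per library (5 per group) and a line at the group median. WT mouse 6 and KO mouse 4, labelled by number, are the highest mice of their genotype in every panel.

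The mice of a group differed from one another more in these genes than in most others. The spread between mice within groups, pooled over the 4 groups, was a standard deviation of 0.52 on the log2 CPM scale for H2-DMa, 0.69 for H2-Ab1, 0.72 for H2-DMb1, 0.75 for Cd74, 0.89 for Ciita, 0.96 for H2-Eb1 and 1.15 for H2-Aa. The median over 11296 genes was 0.23. The standard deviation of the 7 genes exceeded that of 91.0% to 99.6% of all genes. The highest mouse of the WT GFP-low group had 16.7 times the lowest in H2-Aa, 7.59 times in H2-Eb1 and 5.74 times in Cd74. In KO GFP-high cells the corresponding ratios were 4.41, 3.03 and 2.65. Ciita also had the lowest counts of the 7.

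The KO was compared with the WT in each population to ask whether the class II genes changed when Itgb7 was missing. All 7 genes had higher fitted levels in KO than in WT mice in both populations, by 1.38 to 2.70 times in GFP-high and 1.53 to 2.33 times in GFP-low cells. None of these differences passed the adjusted threshold. In GFP-high cells the log2 fold change was 1.19 ± 0.35 for Cd74 (SE, 5 mice per genotype; edgeR adjusted p = 0.247), 1.43 ± 0.50 for H2-Aa (0.346) and 1.23 ± 0.47 for H2-Eb1 (0.401). It was 0.76 ± 0.36 for H2-Ab1, 0.75 ± 0.27 for H2-DMa, 0.94 ± 0.33 for H2-DMb1 and 0.47 ± 0.30 for Ciita. The 7 genes passed in 0 of 7 cases, and 0 of the 11745 genes tested passed either (0.0%). At an unadjusted p under 0.05 edgeR marked 5 of the 7, all higher in KO, where H2-Ab1 and Ciita fell short; the same cut marked 1150 of all genes (9.79%), 4.81% higher in KO. DESeq2 called 143 genes, 0 of them among the 7. Cd74 ranked 211th of 11745 by p.

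In GFP-low cells the log2 fold change was 1.22 ± 0.41 for Cd74, 1.04 ± 0.33 for H2-Ab1 (edgeR adjusted p = 0.745 for both), 1.16 ± 0.60 for H2-Aa and 1.17 ± 0.52 for H2-Eb1. It was 0.68 ± 0.28 for H2-DMa, 0.77 ± 0.40 for H2-DMb1 and 0.61 ± 0.59 for Ciita. Here edgeR called 1 gene of 11778, lower in KO (0.00849%), and 0 of the 7, and DESeq2 called 12 genes, none of them members. At an unadjusted p under 0.05 edgeR marked Cd74, H2-Ab1, H2-Eb1 and H2-DMa, 4 of the 7, against 744 of all genes (6.32%), 2.93% higher in KO. The median log2 fold change of the 7 genes was 0.94 in GFP-high and 1.04 in GFP-low cells, where that of all genes tested was 0.01 and 0.00.

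When both libraries of a mouse were summed, so that each mouse counted once, the log2 fold change was 1.15 ± 0.36 for Cd74 (edgeR adjusted p = 0.588), 1.33 ± 0.52 for H2-Aa, 0.85 ± 0.34 for H2-Ab1 and 1.17 ± 0.48 for H2-Eb1. It was 0.69 ± 0.26 for H2-DMa, 0.85 ± 0.34 for H2-DMb1 and 0.47 ± 0.33 for Ciita. Again 0 of the 7 passed, beside 1 of 11296 genes, which was lower in KO (0.00885%). At an unadjusted p under 0.05 edgeR marked 6 of the 7, Ciita being the exception, and 815 of all genes (7.21%), 3.26% higher in KO. DESeq2 called 24 genes and none of the 7. The plot of KO against WT shows the 3 estimates of each gene beside one another.

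**Figure D2:**
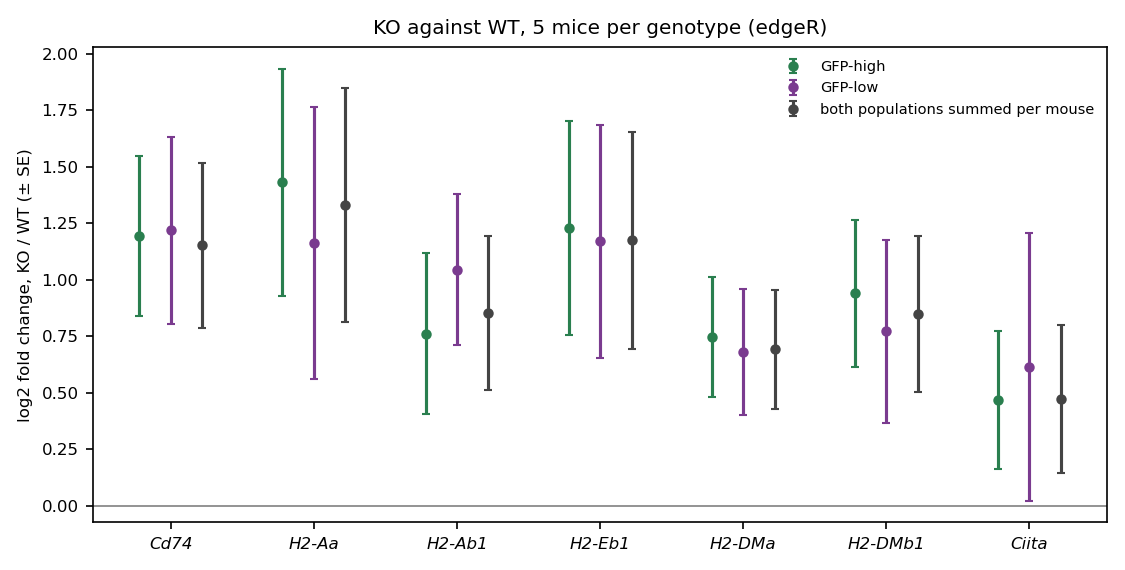
Log2 fold change of KO against WT (± SE, edgeR, 5 mice per genotype) for each gene in GFP-high cells, in GFP-low cells and on counts summed per mouse. All 21 estimates lie above 0, from 0.47 for Ciita to 1.43 for H2-Aa, both in GFP-high cells, and none passed the adjusted threshold.

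Mice 6 (WT) and 4 (KO) moved these estimates in opposite directions. In GFP-high cells Cd74 was at 1.64 ± 0.29 without WT mouse 6 and at 0.90 ± 0.33 without KO mouse 4. The corresponding values were 1.96 ± 0.36 and 0.78 ± 0.44 for H2-Eb1, and 1.23 ± 0.28 and 0.55 ± 0.36 for H2-Ab1. In GFP-low cells Cd74 was at 1.62 ± 0.38 and 0.81 ± 0.37, and H2-Aa at 1.62 ± 0.62 and 0.52 ± 0.55. The number of the 7 with an unadjusted p under 0.05 was 7 without WT mouse 6 and 2 without KO mouse 4 in GFP-high cells, and 6 and 2 in GFP-low cells. In GFP-low cells it was also 2 without WT mouse 1, 7 or 8. On the summed counts it was 1 without KO mouse 4 or WT mouse 1, and 4 without WT mouse 3, 7 or 8. The shares of all genes at that p in these refits are not given here. These counts therefore describe the 7 genes alone and do not set them apart from other genes. With all mice the genotypes overlapped in each of the 7 genes, where every KO value lay above every WT value in 1.0% of all genes in GFP-high cells and 0.662% in GFP-low cells (0.637% on the summed counts). With WT mouse 6 left out they no longer overlapped in 6 of the 7 in GFP-high cells, H2-Ab1 being the exception (1.56% of all genes), nor in Cd74, H2-Ab1 and H2-Eb1 in GFP-low cells (1.14%). On the summed counts they then did not overlap in any of the 7 (1.07%). Mouse 6 was left out after its values were seen, so these counts describe the other mice and are not a test.

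GFP-low cells had less class II transcript than GFP-high cells. Within single mice Cd74, H2-Aa, H2-Eb1, H2-DMa and Ciita were lower in GFP-low cells in 10 of 10 mice, as were 20.9% of all genes. H2-DMb1 was lower in 9 mice and H2-Ab1 in 7. The median ratio of GFP-high to GFP-low was 3.57 for H2-Aa (range 1.43 to 7.38), 3.50 for H2-Eb1 (1.78 to 5.94) and 3.05 for Ciita (1.21 to 7.69). It was 2.59 for Cd74 (1.80 to 3.39), 1.76 for H2-DMa (1.14 to 2.17), 1.69 for H2-DMb1 (0.996 to 2.35) and 1.39 for H2-Ab1 (0.865 to 1.95). These are bulk libraries, in which fewer class II-positive cells and less RNA per cell cannot be told apart.

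**Figure D3:**
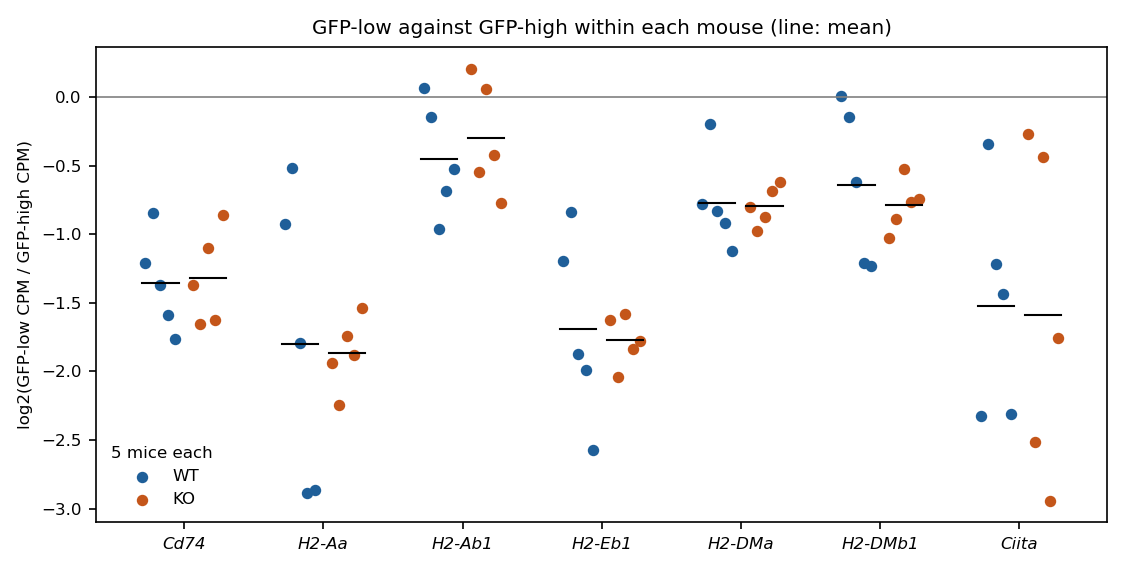
Log2 ratio of GFP-low to GFP-high CPM within each mouse for the 7 genes, 5 WT and 5 KO mice, with a line at the mean of each genotype. All points of Cd74, H2-Aa, H2-Eb1, H2-DMa and Ciita lie below 0, while H2-Ab1 lies above 0 in 3 of 10 mice.

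In WT mice edgeR without a block called 3 of the 7 genes lower in GFP-low cells, as it did 21.4% of all genes. Cd74 fell by 1.31 ± 0.46 on the log2 scale (SE; edgeR adjusted p = 0.0343), H2-Eb1 fell by 1.66 ± 0.60 (0.0396) and Ciita fell by 1.35 ± 0.49 (0.0409). H2-Aa was at -1.56 ± 0.65, H2-DMa at -0.75 ± 0.32, H2-DMb1 at -0.57 ± 0.43 and H2-Ab1 at -0.54 ± 0.40. With the mouse number as a block, used because both libraries of a mouse deviated together, 7 of 7 fell (25.9% of all genes), among them H2-Aa at -1.66 ± 0.31 (edgeR adjusted p = 0.00121), H2-DMa at -0.77 ± 0.12 (0.000434), H2-DMb1 at -0.62 ± 0.18 (0.0145) and H2-Ab1 at -0.45 ± 0.13 (0.0169). Without the block the count was 0 when mouse 6 or 8 lost its GFP-high library or mouse 1, 7 or 8 its GFP-low library. It was 1 without either library of mouse 3 and 5 without the GFP-low library of mouse 6. It was 2 without the GFP-high library of mouse 1 and 4 without that of mouse 7. With the block it was 7 without mouse 1 or 3, 6 without mouse 6 and 5 without mouse 7 or 8, and the genes lost were H2-Ab1 and H2-DMb1. Cd74, H2-Eb1, H2-Aa, H2-DMa and Ciita passed in each of these blocked fits. Of all genes 4268 to 4803 passed in either direction in the unblocked refits and 4915 to 5471 in the blocked ones.

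In KO mice 5 of the 7 fell without a block, where 24.4% of all genes did. The fallen genes were Cd74 at -1.26 ± 0.31 (edgeR adjusted p = 0.00413), H2-Aa at -1.81 ± 0.48 (0.00611), H2-Eb1 at -1.71 ± 0.40 (0.00300), H2-DMa at -0.79 ± 0.23 (0.00990) and Ciita at -1.18 ± 0.44 (0.0364). H2-DMb1 was at -0.72 ± 0.30 (0.0624), and with the block it fell by 0.77 ± 0.09 (1.404e-05), so that 6 of the 7 passed (27.9% of all genes). H2-Ab1 was at -0.28 ± 0.13 with the block (0.0780) and -0.24 ± 0.29 without it (0.509). H2-Ab1 passed with the block when mouse 2 or 4 was left out, at -0.41 and -0.38, and without the block when the GFP-low library of mouse 4 was, at -0.62. Leaving out that library also brought H2-DMb1 past the threshold, at -1.12. Ciita no longer passed without the block when mouse 3, 4 or 6 lost its GFP-high library or mouse 3, 5 or 6 its GFP-low library, at -1.19 to -0.93. Scaling by library totals alone shifted the median of all genes to -0.37 in WT and -0.27 in KO and turned the split of calls to 1188 higher and 4895 lower in WT and 1778 and 4738 in KO, from 2479 and 2422 and from 2956 and 2751 with TMM factors. The members' falls are relative to the TMM median, which was -0.01 in both genotypes.

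H2-Ab1 differed less between the populations than H2-Aa, the other chain of its heterodimer. The ratio of H2-Ab1 to H2-Aa in CPM per kilobase had a median of 10.2 in WT GFP-high cells (range 8.11 to 13.3), 8.02 in KO GFP-high cells (3.92 to 10.2), 22.9 in WT GFP-low cells (11.3 to 61.1) and 18.3 in KO GFP-low cells (13.6 to 27.9). It was higher in GFP-low cells in 10 of 10 mice, by 1.46 ± 0.69 on the log2 scale (SD, n = 10; two-sided exact sign-flip permutation p = 0.00195, the smallest these mice allow). The highest ratios, in WT mice 7 and 8, rested on the lowest H2-Aa values. For the DM pair the ratio of H2-DMa to H2-DMb1 was higher in GFP-low cells in 5 of 10 mice and differed by -0.07 ± 0.32 (SD, n = 10; two-sided exact sign-flip permutation p = 0.582). These 2 ratios were the ones computed, chosen because each joins the chains of 1 heterodimer.

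The effect of the KO was compared between the populations with an interaction term, which was not called for any of the 7 genes or for any of 11296 (0.0%). At an unadjusted p under 0.05 edgeR marked 353 genes (3.12%) and none of the 7, and DESeq2 called 0. With the mouse as a block the difference of the KO effect, GFP-low minus GFP-high, was 0.03 for Cd74 with a 95% interval of -0.35 to 0.41, and -0.10 for H2-Eb1 with -0.62 to 0.41. It was 0.15 for H2-Ab1 (-0.29 to 0.60), -0.22 for H2-Aa (-0.96 to 0.52), -0.02 for H2-DMa (-0.34 to 0.29), -0.17 for H2-DMb1 (-0.62 to 0.29) and -0.02 for Ciita (-1.17 to 1.13). Without the block the intervals were wider, -1.21 to 1.27 for Cd74. The intervals show what size of difference 5 mice per genotype leave possible, and not that the effects were alike.

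A mouse that was high in GFP-high cells tended to be high in GFP-low cells. After subtraction of genotype means, Pearson's r between the log2 CPM of both populations over the 10 mice was 0.905 for Cd74 (exact permutation p = 0.00618, two-sided, mice permuted within genotype), 0.87 for H2-DMa (exact permutation p = 0.00576) and 0.87 for H2-Eb1 (exact permutation p = 0.00889). It was 0.85 for H2-DMb1, 0.82 for H2-Ab1, 0.81 for H2-Aa and 0.48 for Ciita. Adjusted over all 11296 genes, none of the 7 passed (lowest adjusted p = 0.200, for H2-DMa), and 0 of all genes did (0.0%). An unadjusted p under 0.05 was reached by 1735 of all genes. The median r over all genes was 0.35. Spearman's rho was 0.61 for Cd74 (exact permutation p = 0.105), 0.73 for H2-DMa (0.0286) and 0.71 for H2-Ab1 (0.0278), and 0.31 to 0.64 for the other 4. Without the 2 mice farthest from the median in GFP-high cells r was 0.75 for Cd74 and 0.66 for H2-Ab1 (both without WT mice 6 and 7). It was 0.62 for H2-Aa, 0.56 for H2-Eb1, 0.51 for H2-DMa and 0.50 for H2-DMb1 (without WT mouse 6 and KO mouse 4), and 0.13 for Ciita (without WT mice 6 and 7). Each of the 7 values of r was lower without those mice.

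**Figure D4:**
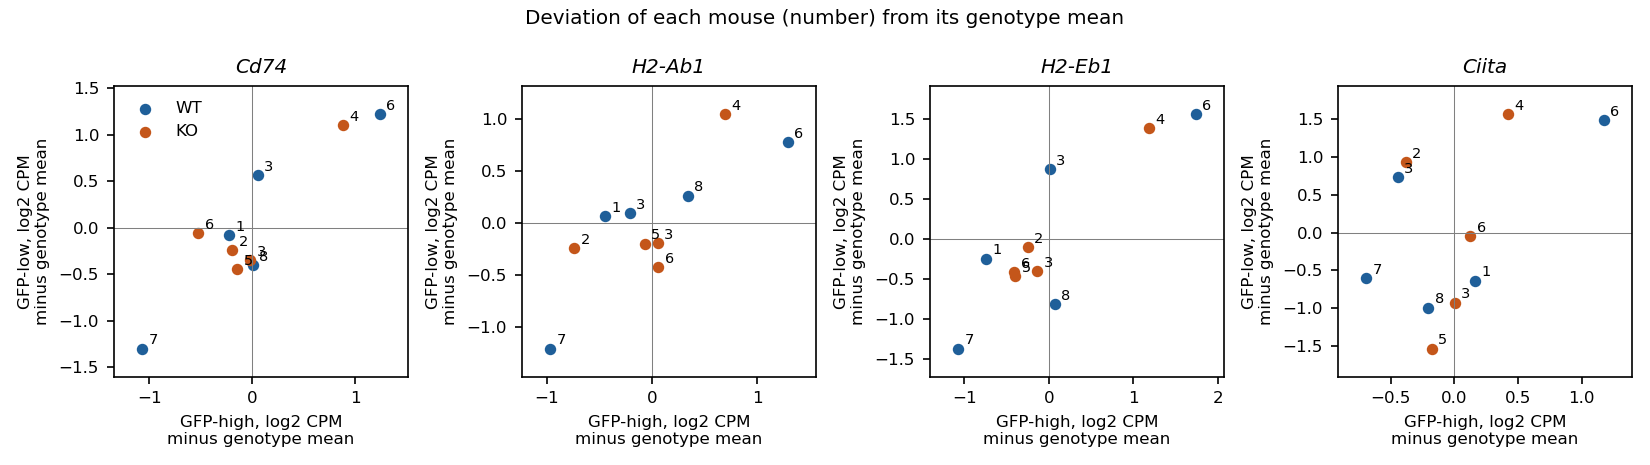
Deviation of each mouse from its genotype mean in log2 CPM, GFP-high cells on the x axis and GFP-low cells on the y axis, for Cd74, H2-Ab1, H2-Eb1 and Ciita, with mouse numbers beside the points. WT mouse 6 and KO mouse 4 lie at the upper right in all 4 panels, WT mouse 7 lies at the lower left, and the points of Ciita are the most scattered (r = 0.48).

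The 7 genes varied together from library to library. Over the 20 libraries, with the group means subtracted, r between pairs of them had a median of 0.89 and ran from 0.63 to 0.98 over 21 pairs. These libraries share depth and mice in pairs, so the values are a description. Neither these r nor those below are given without WT mouse 6 and KO mouse 4, the highest mice in all 7 genes. Against the mean of Cd74, H2-Aa, H2-Ab1 and H2-Eb1, r was 0.98 for H2-DMb1, 0.95 for H2-DMa and 0.76 for Ciita. Outside the 7, the gene most like that mean was Psmb8, a catalytic subunit of the immunoproteasome that cuts peptides for class I (r = 0.84 over 20 libraries, 0.88 in GFP-high and 0.82 in GFP-low cells). Next came Clk1 (0.83), Ddit3 (0.81), Slk (0.80) and H2-Q6, a class I gene (0.79). Simc1 (0.78), Arl4a (0.78), Zfp131 (0.77), Nlrc5 (0.77) and BC051142 (0.76) completed the 10 highest. Some differed between the populations. Ddit3 was at 0.624 in GFP-high and 0.965 in GFP-low cells, and Nlrc5 at 0.882 and 0.672. Nlrc5 is the coactivator of class I genes related to CIITA. For comparison, the class I heavy chain H2-K1 had an r of 0.07.

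Of 22 genes of MHC class I and the immunoproteasome, 13 rose in GFP-low cells of WT mice and 15 in KO mice and none fell (16 and 16 with the block), while 3 and 5 of the 7 class II genes fell in the same fits and none rose. This stands beside 2479 of 11293 and 2956 of 11294 genes that rose in all (43.4% and 50.5% of genes passed in either direction). H2-Q2, a class I heavy chain, rose by 1.07 ± 0.10 in WT and 1.10 ± 0.10 in KO mice, and H2-T22 by 1.27 ± 0.13 in WT mice. Pdia3, a chaperone of the class I loading complex, rose by 0.97 ± 0.10 in KO mice. The list median was 0.58 in WT and 0.57 in KO mice, against -1.31 and -1.18 for the 7 class II genes. Of 20 genes induced by interferons, 10 rose and 2 fell in WT mice and 10 rose and 3 fell in KO mice (13 and 2, and 11 and 3, with the block). Zbp1, a sensor of nucleic acids, rose by 2.49 ± 0.27 in WT mice and Irf7, a factor that drives type I interferon genes, by 1.87 ± 0.14 in KO mice. Ifitm3, a membrane protein that restricts viral entry, fell by 1.98 ± 0.15 in WT and 1.88 ± 0.12 in KO mice.

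Of 12 regulators of class II transcription other than Ciita, 1 rose and 3 fell in GFP-low cells of WT mice, and 5 fell in KO mice; with the block the falls numbered 5 and 6. Of all genes 21.4% fell in WT and 24.4% in KO mice without the block, so that 3 of 12 in WT mice is near the share of all genes. Ezh2, a histone methyltransferase, fell by 0.59 ± 0.14 in WT and 0.73 ± 0.11 in KO mice, and Creb1, an X box factor, by 0.42 ± 0.12 in WT mice. Rfxap, a subunit of the RFX complex on the X box, fell by 0.47 ± 0.17 in WT and 0.74 ± 0.15 in KO mice, while Rfxank, another subunit, rose by 0.42 ± 0.12 in WT mice; both were named after their values were seen. These falls were smaller than that of Ciita (1.35 in WT mice), although the difference was not tested. Of 12 genes of interferon gamma signalling, 3 rose and none fell in WT mice and 3 rose and 2 fell in KO mice. With the block 4 rose and 1 fell in WT mice, and 5 rose and 3 fell in KO mice. The 3 of 12 that rose without the block are near the share of all genes that rose, 2479 of 11293 in WT and 2956 of 11294 in KO mice. Jak2, a kinase of the receptor, rose by 0.46 ± 0.14 in WT mice, and Socs3, an inhibitor of cytokine signalling, rose by 0.73 ± 0.22 in KO mice. Among 14 endosomal proteases and other antigen processing genes, 7 rose in WT and 6 in KO mice and none fell (10 and 8 with the block). Sppl2a, a protease that removes the last remnant of the invariant chain from the membrane, rose by 0.77 ± 0.15 in WT and 0.64 ± 0.14 in KO mice. Of 10 costimulatory and checkpoint ligands, 5 rose and 1 fell in each genotype, among them Btnl6 (1.76 ± 0.25) and Icam1 (-1.61 ± 0.35) in WT mice. Cd80, Cd86 and Cd40, ligands used by professional antigen-presenting cells, had no row in either table. Cd82, 1 of 3 genes listed for class II turnover, rose by 1.10 ± 0.11 in WT mice. H2-Q10, which is a class I gene, and Btnl2 were the tested genes of a list of other genes of the class II region, and both rose in both genotypes.

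**Figure D5:**
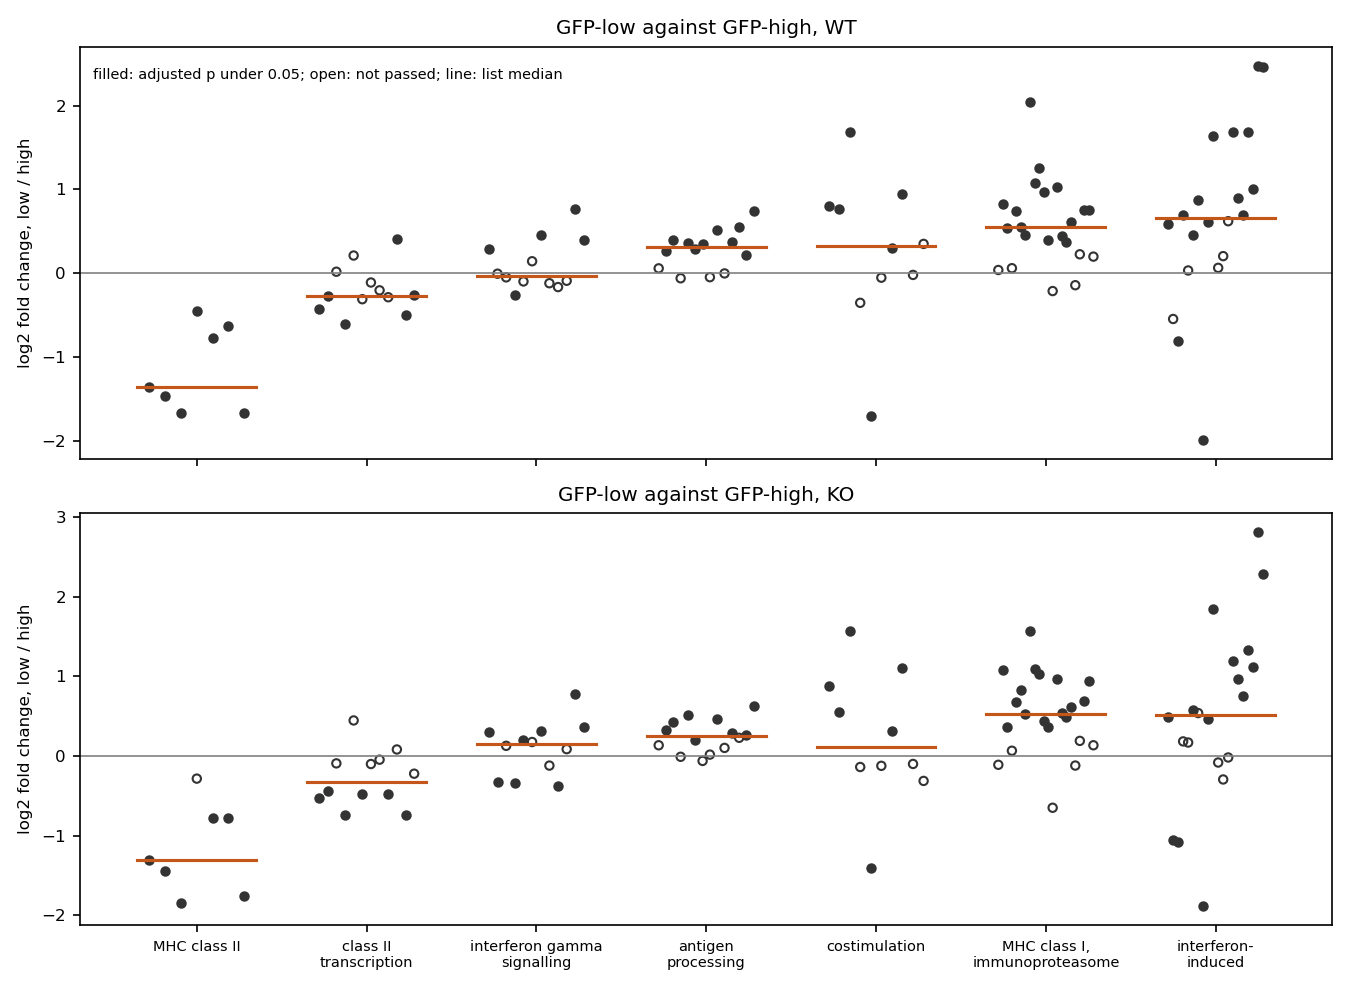
Log2 fold change of GFP-low against GFP-high cells in WT (upper) and KO mice (lower) for the genes of 7 lists, 1 point per gene, from edgeR fits with the mouse as a block; filled points passed an adjusted p of 0.05, open points did not, and lines mark list medians. The class II genes lie below 0 in both genotypes, while the medians of the class I and interferon-induced lists lie above 0.

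Between genotypes none of the genes on these lists passed in either population. In GFP-high cells 19 of 23 class I and immunoproteasome genes were above 0 (median 0.16), among them Tap1, a peptide transporter, at 0.50 ± 0.13 and Psmb9, an immunoproteasome subunit, at 0.46 ± 0.12 (edgeR adjusted p = 0.187 for both). In GFP-low cells 16 of 22 were above 0 (median 0.12), with Psmb8 at 0.49 ± 0.13 and the chaperone Canx at -1.11 ± 0.29 (edgeR adjusted p = 0.731 for both). The median of the interferon-induced list was 0.28 in GFP-high and -0.02 in GFP-low cells, that of interferon gamma signalling 0.05 and 0.02, and that of the class II transcription factors -0.03 and -0.09. At an unadjusted p under 0.05, 7 of 23 class I and 5 of 22 interferon-induced genes were higher in KO GFP-high cells, where 4.81% of all genes were. In GFP-low cells 3 of 22 and 1 of 23 were, where 2.93% of all genes were. Sums of the interferon-induced genes were scaled by library totals alone. They were 1005 to 1266 CPM in WT and 1243 to 1516 CPM in KO GFP-high libraries, which overlapped. In GFP-low libraries they were 540 to 646 CPM in WT and 675 to 822 CPM in KO mice. The TMM factors of the GFP-low libraries of WT mice 3 and 8 were 0.7296 and 0.7294. Scaling by those factors raises these libraries, so no genotype difference is read from the GFP-low ranges.

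Markers of cells that carry class II constitutively were sparse in these libraries. Of 30 markers of antigen-presenting myeloid cells, 5 had a row in each table. Ptprc, Itgax, Csf1r, Adgre1, Flt3, Zbtb46 and the C1q genes had none, nor did the B cell genes Cd79a and Ms4a1. The tables list genes above a mean count, so a gene without a row can be low rather than at 0. Myeloid markers, scaled by library totals, summed to 18.8 to 28.1 CPM in WT and 25.8 to 37.5 CPM in KO GFP-high libraries. In GFP-low libraries they summed to 12.7 to 25.2 and 17.9 to 24.3 CPM. Fcer1g had a row for GFP-high cells alone and Laptm5 for GFP-low cells alone, so these sums cover different genes. The 7 class II genes, scaled alike, summed to 326 to 1458 CPM in WT and 1066 to 2344 CPM in KO GFP-high libraries. They summed to 127 to 585 and 480 to 1242 CPM in GFP-low libraries. In KO against WT cells 5 of 5 myeloid markers were above 0 in GFP-high (median 0.395) and 4 of 5 in GFP-low cells (0.207). None passed. Of all genes 6035 of 11745 and 5799 of 11778 were above 0. At an unadjusted p under 0.05 edgeR marked 2 higher in GFP-high cells (4.81% of all genes) and 0 in GFP-low cells (2.93%). Of the myeloid markers Fcer1g, a signalling chain of Fc receptors, was at 1.58 ± 0.52 in KO against WT GFP-high cells (edgeR adjusted p = 0.304). Cd14, a receptor for bacterial lipopolysaccharide, was at 0.49 ± 0.17 there (0.327). Of 18 B and plasma cell markers 1 and 2 had a row, summing to at most 6.92 CPM. The part of such cells in the class II differences was not tested.

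T cell and intraepithelial lymphocyte markers had 8 of 30 rows in the GFP-high and 7 of 30 in the GFP-low table, while Cd3e, Cd8a, Cd4 and the T cell receptor constant genes had none. In KO against WT cells 7 of 8 and 7 of 7 were above 0, with medians of 0.90 and 0.62, and none passed. Lck, a kinase of T cell receptor signalling, was at 0.32 ± 0.14 and Nkg7, a protein of cytotoxic granules, at 1.28 ± 0.60 in GFP-high cells. The markers of both tables, with TMM factors, summed to 15.0 to 63.2 CPM in WT and 23 to 98.9 CPM in KO GFP-high libraries. In GFP-low libraries they summed to 10.9 to 67.2 and 18.1 to 96.0 CPM. The class II sums given next used the same factors. WT mouse 7 was lowest of the WT in both the lymphocyte and the class II sum, at 15.0 and 289 CPM in GFP-high and 10.9 and 137 CPM in GFP-low cells. KO mouse 6 was lowest of the KO in both sums in GFP-low cells, at 18.1 and 533 CPM. The highest mice differed between the sums. WT mouse 6, highest in class II, had a lymphocyte sum of 34.9 CPM in GFP-high cells, below mice 1 and 3 at 58.9 and 63.2 CPM. KO mouse 4, highest in class II, had 71.1 CPM there, below mouse 5 at 98.9 CPM. The part of the lymphocytes in the KO estimates was not tested. Between the populations 1 of 7 of these markers fell in each genotype, Lck by 1.29 ± 0.21 in WT and 1.46 ± 0.19 in KO mice, and none rose. With the block 1 fell in WT mice, while in KO mice 3 fell (Lck, Nkg7 and Gzma) and 1 rose (Rac2, at 1.14 ± 0.28), named after their values were seen.

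Markers of other epithelial lineages differed between the populations, while none passed between genotypes. GFP-low cells had lower stem cell markers, 13 of 13 in each genotype, and higher Paneth and goblet cell markers, 15 of 15 and 10 of 10 in each. Of enterocyte markers 12 of 13 rose in each genotype. Tuft cell markers rose in 7 of 7 cases in WT and 6 of 7 in KO mice, and enteroendocrine markers in 10 and 11 of 11. Without the block 2422 fell and 2479 rose of all 11293 genes in WT mice, and 2751 and 2956 of 11294 in KO mice. Lgr5 is on the stem cell list and its reporter defined the sort, so its fall was fixed in advance. In KO GFP-high cells 11 of 11 enteroendocrine and 10 of 10 goblet cell markers were below 0 and none passed, with 8 and 4 at an unadjusted p under 0.05, where 585 of all 11745 genes were lower at that p. Of 7 tuft cell markers 6 were below 0 there, 4 of them at that p. Enterocyte, Paneth and stem cell markers were below 0 there in 7 of 13, 12 of 15 and 8 of 13. Of all 11745 genes 5710 were. In KO GFP-low cells 15 of 15 enterocyte, 14 of 15 Paneth and 10 of 13 stem cell markers were below 0 and none passed, with 7, 1 and 6 at that p, where 399 of all 11778 genes were lower. Tuft, enteroendocrine and goblet cell markers were below 0 in KO GFP-low cells in 10 of 10, 8 of 12 and 5 of 10. Of all 11778 genes 5979 were. The part of these lineages in the class II levels was not tested.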

How the data were processed

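RNA of sorted crypt epithelial cells was sequenced in 20 libraries. The authors deposited 1 table per population of expected counts (estimated read counts per gene), 13.7% of which were not whole numbers. TopHat2, Bowtie2, RSEM and the build mm10 are named without versions or roles, per the submitters' processing notes. The tables list genes with a mean count of at least 17 (GFP-high) and 16.8 (GFP-low), and 11296 genes are in both. Date-like names stood in place of 16 and 17 gene names, and 34 and 30 entries shared a name with another entry.

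Counts were rounded and tested with edgeR 4.0.16 in R 4.3.3 (quasi-likelihood test, TMM factors, filterByExpr with a minimum count of 10, Benjamini-Hochberg threshold 0.05 over all genes). DESeq2 1.42.0, library totals, RLE factors, no filter and leaving out each library were alternatives. CPM used TMM factors over all 20 libraries. The myeloid, B and plasma cell and interferon-induced sums, and the class II sums beside the myeloid ones, used library totals. Lengths were those of principal transcripts in GENCODE M21. Correlations and ratios were computed with Python 3.11.15, SciPy 1.17.1, NumPy 2.4.6 and pandas 2.3.3. The correlations used log2 CPM with a prior count of 2, and the ratios used CPM without a prior count. The scripts were tested on simulated data.

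The number in the labels, which they do not define, was read as the mouse and checked as a pairing of GFP-high with GFP-low libraries. Deviations from group means correlated at 0.169 to 0.625 for the same number and at -0.4 to 0.175 for other numbers, and the own number was highest in 10 of 10 pairs. The p-values of KO against WT measure the spread between the mice of a group. Those of the fits blocked by mouse and of the sign-flip test measure the spread of differences within mice. Unblocked fits that join both populations treat the 2 libraries of a mouse as independent. The exact permutation p measures association between the populations. Every member is named, with at most 2 genes of smallest p from each other list and the 10 genes of most similar pattern; any other gene is said to be chosen after its values were seen or given for comparison. The members and lists were chosen with earlier results of these data known. Some genes of the other lists are not reported here by name.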

Additional observations from a re-analysis of the deposited data

Results flagged for a closer look

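In each gene and group of 5 mice the highest and the lowest mouse were compared with the rest, and a mouse was picked out where its gap to the next took more than 0.71 of the group's whole range. This held in 14 of the 28 groups, and always for KO mouse 4 or WT mouse 6. For normally distributed values chance picks out about 1 in 20 groups. The rate for values on the CPM scale was not determined, and the 7 genes share the same mice, so these cases are not independent of one another.

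KO mouse 4 stood apart in GFP-high cells for Cd74 (745 CPM, next highest 400), H2-Aa (156, next 54.7), H2-Eb1 (288, next 115), H2-DMa (215, next 127) and H2-DMb1 (87.0, next 46.3). It stood apart in GFP-low cells for Cd74 (348 CPM, next highest 155), H2-Aa (46.8, next 15.4), H2-Ab1 (684, next 290), H2-Eb1 (96.3, next 34.5), H2-DMa (117, next 72.9) and H2-DMb1 (60.4, next 25.1). WT mouse 6 stood apart in GFP-high cells for H2-Eb1 (155 CPM, next highest 48.7), H2-DMa (142, next 74.3) and H2-DMb1 (52.8, next 25.2). Ciita was not among these cases in any group.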

How the results depend on the processing

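Between genotypes none of the 7 genes passed under any alternative run. DESeq2 called 143 genes in GFP-high cells, 12 in GFP-low cells and 24 on the summed counts, and library totals called 2 on the summed counts. Leaving out 1 library or mouse at a time gave 0 to 1, 1 to 2 and 1 to 2 genes. Mouse numbers 3 and 6 occur in both genotypes but their libraries did not deviate together (r from -0.105 to -0.076). A replicate block on them, with 2 mice per genotype, called 107 genes in GFP-high and 136 in GFP-low cells and turned the GFP-low estimates of H2-Aa to -0.31, H2-Eb1 to -0.26, H2-DMa to -0.20, H2-DMb1 to -0.23 and Ciita to -1.06.

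Of GFP-low against GFP-high in WT mice, 5 members passed with library totals, which also called more of all genes lower, as given above. With the replicate block 7 passed (25.9% of all genes fell). Without 1 library 0 to 5 passed, beside 4268 to 4803 of all genes in either direction. With the block and without 1 mouse 5 to 7 passed, beside 4915 to 5471 of all genes. That alternative was added after seeing the data. The difference of the KO effect turned sign with library totals for H2-Eb1 (0.0209) and H2-DMa (0.0367) and with the replicate block for Ciita (-0.0196). Without 1 library it ran from -0.41 to 0.43 for Cd74, -0.90 to 0.30 for H2-Aa, -0.18 to 0.51 for H2-Ab1, -0.78 to 0.49 for H2-Eb1, -0.38 to 0.22 for H2-DMa, -0.57 to 0.23 for H2-DMb1 and -0.37 to 0.70 for Ciita. The cause of these changes was not tested. The block changed no other call on a member beyond those given with the results. Summing H2-DMb1 with H2-DMb2 was not run, since H2-DMb2 had no row. The low counts of Ciita limit its precision.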
